A study of Mus musculus with 6 samples.

Results

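The 10 genes described here mark stem cells of the mouse hair follicle. They are *Lgr5*, *Lgr6*, *Lrig1*, *Cd34*, *Sox9*, *Lhx2*, *Nfatc1*, *Tcf7l1*, *Tbx1* and *Foxc1*, taken from a named list of bulge, germ and junctional zone genes and found in the count table by their Ensembl identifiers, and they are 10 of its 26579 genes. RNA-Seq was carried out on whole skin punch biopsies from the dorsal neck of female mice at P33, with 3 wild type mice and 3 littermates carrying the YAP2-5SA-∆C transgene. YAP2-5SA-∆C is a mildly activated form of YAP, the transcriptional cofactor at the end of the Hippo kinase pathway, and the transgene is expressed in basal keratinocytes, a layer that runs on into the outer sheath of the follicle. The transgenic mice were taken when the visible skin phenotype began, with a thickened epidermis. Each library is 1 biopsy of all skin layers with no sorting of follicle cells, so fewer cells of a type and less RNA per cell cannot be told apart.

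Hair follicles pass through cycles of growth, regression and rest, and they are rebuilt from stem cells held in niches along the follicle wall. The bulge and the hair germ beneath it feed the growing follicle, whereas stem cells of the isthmus and junctional zone higher up maintain the upper follicle and the sebaceous gland. Surface proteins such as *Lgr5*, *Lgr6*, *Lrig1* and *Cd34* mark different stretches of this wall, and transcription factors such as *Sox9*, *Lhx2*, *Nfatc1*, *Tcf7l1*, *Tbx1* and *Foxc1* are known for setting the identity, the quiescence or the activation of its cells. Several of the 10 are also expressed elsewhere in skin, *Cd34* in vessels, dermal fibroblasts and mast cells and *Nfatc1* in endothelium.

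The question was whether transcripts of these stem cell genes differ between wild type and YAP2-5SA-∆C skin. Total counts per library ranged from 11225705 to 19505036, and the members had between 108 counts (*Tcf7l1* in wild type replicate 3) and 3302 counts (*Cd34* in wild type replicate 1). Levels are given as CPM (counts scaled to library size with TMM factors), and all 10 members were among the 15102 genes that reached 1 CPM in 3 or more libraries and were tested. In multidimensional scaling of the libraries, YAP2-5SA-∆C replicate 2 stood apart at 2.24 on dimension 1, against 0.26 and 0.30 for the other transgenic libraries and -1.20 to -0.51 for wild type. Genes listed for the hair matrix and shaft, most of which are made while a hair grows, summed to 15900 to 21230 CPM in wild type. They summed to 8311 and 10430 CPM in transgenic replicates 1 and 3, and to 1729 CPM in replicate 2. For this reason, several results are also given without replicate 2. The labels do not say more of the replicates than that they are separate samples. The paper names 3 mice in each group, so the p-values measure the spread between mice.

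None of the 10 stem cell genes passed the FDR threshold of 0.05 when tested with the quasi-likelihood method of edgeR and Benjamini-Hochberg adjustment over all tested genes. The 10 included 2, *Nfatc1* and *Tbx1*, at an unadjusted p below 0.05, a level that 26.3% of all tested genes reached. Of all tested genes, 1.91% passed the FDR threshold, 1.44% as higher and 0.464% as lower in YAP2-5SA-∆C skin. Fold changes lay on both sides of 0, with 5 of 10 members lower and a median log2 fold change of -0.05, against -0.01 over all tested genes. The CPM of the groups did not overlap for 1 member that was higher in YAP2-5SA-∆C skin, *Nfatc1*, and for 2 that were lower, *Tbx1* and *Foxc1*. Among all tested genes 15.5% were higher and 18.3% lower without overlap. Leaving out 1 library gave 142, 0 and 0 genes of all tested without wild type replicates 1, 2 and 3 and 86, 816 and 0 without transgenic replicates 1, 2 and 3, against 288 with all libraries. Without transgenic replicate 2, 407 of the 816 were higher and 409 lower, against 218 and 70 with all libraries, and 0 of the 10 members were among them, as was also the case in the fits with 142 and 86 calls and with voom. In the 3 fits that called 0 genes no member could be called. Both *Nfatc1* and *Tbx1* passed with edgeR's likelihood-ratio test, which called 10.4% of all genes, and in DESeq2, which called 10.5%.

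**Figure D1:**
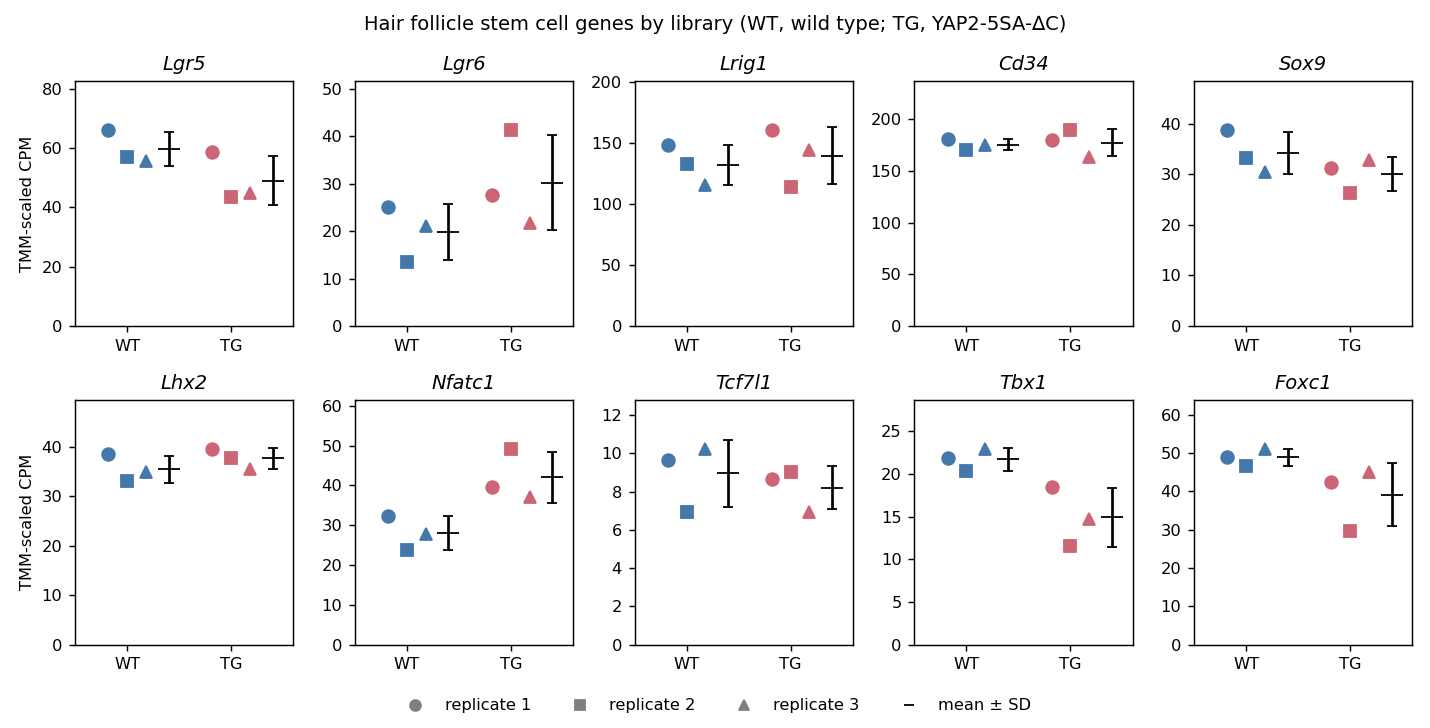
TMM-scaled CPM of each of the 10 genes (vertical axes, each starting at 0) in the 3 wild type (WT) and 3 YAP2-5SA-∆C (TG) libraries, with symbols for the replicate number and bars for the mean ± SD. All 3 transgenic points lie above the wild type points for *Nfatc1* and below them for *Tbx1* and *Foxc1*, and the points of the groups overlap for the other 7 genes.

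*Lgr5* and *Lgr6* encode receptors for R-spondins, secreted proteins that strengthen Wnt signalling, and they mark different cells, *Lgr5* the lower bulge and germ and *Lgr6* the isthmus above the bulge. *Lgr5* (ENSMUSG00000020140, chr10:115450311-115587780 of GRCm38, minus strand) had 66.1, 57.1 and 55.5 CPM in wild type skin and 58.6, 43.6 and 44.8 CPM in YAP2-5SA-∆C replicates 1 to 3. Transgenic replicate 1 lay within the wild type range and the other transgenic libraries lay below it. The means were 59.5 ± 5.71 and 49.0 ± 8.34 CPM (SD, n = 3 each), and the log2 fold change was -0.28 (standard error 0.13, 95% interval -0.59 to 0.03, FDR 0.221), which did not pass the test. Without transgenic replicate 2 it was -0.19 (FDR 0.482).

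*Lgr6* (ENSMUSG00000042793, chr1:134983301-135105276, minus strand) had 25.1, 13.5 and 21.1 CPM in wild type skin and 27.5, 41.3 and 21.8 CPM in transgenic skin. Wild type replicate 2 was the lowest library and transgenic replicate 2 the highest, and the other 4 lay between 21.1 and 27.5 CPM with the groups overlapping. The log2 fold change of 0.60 (standard error 0.29, 95% interval -0.08 to 1.29, FDR 0.236) was the largest upward value of the 10 and did not pass the test. It was 0.33 (FDR 0.514) without transgenic replicate 2, the library in which *Lgr6* was highest, and 0.39 (FDR 0.488) without wild type replicate 2, the lowest.

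Since both receptors bind the same ligands, their balance within each library was computed per exon length, a measure chosen after their values were seen. *Lgr6* RNA was 0.570, 0.354 and 0.570 times that of *Lgr5* in wild type and 0.704, 1.42 and 0.729 times in YAP2-5SA-∆C replicates 1 to 3. All 3 transgenic ratios lay above the wild type ratios, and *Lgr6* exceeded *Lgr5* only in transgenic replicate 2. The ratio was 1.85-fold higher in YAP2-5SA-∆C skin, a difference of 0.89 on the log2 scale, and 0.56 without replicate 2. A two-sided exact permutation test of the log2 ratios gave p = 0.1, the smallest value that 3 against 3 libraries allow. As the measure was chosen after the values were seen, that test cannot decide whether the balance differs.

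*Lgr4*, the third receptor of the family and the most abundant here, had 126 ± 5.12 CPM in wild type skin and 101 ± 16.3 CPM in transgenic skin (SD, n = 3 each). All 3 transgenic libraries were below the wild type ones, and the log2 fold change of -0.32 (standard error 0.12, FDR 0.140) did not pass the test and was -0.19 (FDR 0.194) without transgenic replicate 2. Per exon length *Lgr4* stood at 21.4 RPKM in wild type, against 5.80 for *Lgr5* and 2.90 for *Lgr6*. Of the 12 genes in a list of R-spondins, LGR receptors and their partners at the membrane, 0 rose and 0 fell, and their median log2 fold change was -0.24. *Nkd1*, a Wnt target and inhibitor, had 19.9 to 22.9 CPM in wild type skin and 11.2 to 16.0 CPM in transgenic skin. The coreceptor *Lrp6* had 223 to 244 and 195 to 209 CPM, and neither gene passed the threshold. *Axin2*, another Wnt target in the list, named after its values were seen, had a log2 fold change of -0.04 (FDR 0.748).

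*Lrig1* and *Cd34* had the highest levels of the 10 genes, and their fold changes were close to 0. *Lrig1* (ENSMUSG00000030029, chr6:94604529-94700158, minus strand), a transmembrane protein that restrains ERBB receptors and marks the junctional zone, had 149, 133 and 116 CPM in wild type skin and 161, 114 and 144 CPM in transgenic skin. The highest and the lowest library were both transgenic, so the groups overlapped over the whole wild type range. The log2 fold change was 0.08 (standard error 0.14, 95% interval -0.26 to 0.41, FDR 0.755), and between -0.01 and 0.22 as single libraries were left out, the highest without transgenic replicate 2. The relatives *Lrig2* and *Lrig3* had log2 fold changes of 0.02 and 0.01. Of 5 tested genes in the list of LRIG proteins and their ERBB targets 0 rose and 0 fell, and *Egfr*, the lowest of them by p, had 365 to 370 CPM in wild type skin and 264 to 322 CPM in transgenic skin.

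*Cd34* (ENSMUSG00000016494, chr1:194938819-194961279, plus strand) encodes a surface sialomucin that marks bulge cells in the mouse. It was measured at 181, 170 and 175 CPM in wild type skin and at 180.0, 190 and 163 CPM in transgenic skin, with 176 ± 5.53 and 178 ± 13.4 CPM as means (SD, n = 3 each). The transgenic libraries lay on both sides of the wild type range. Its log2 fold change of 0.02 (standard error 0.07, FDR 0.895) had the narrowest interval of the 10, from -0.15 to 0.18, and was -0.02 without transgenic replicate 2. Marker lists of other skin cells that carry *Cd34* were read beside it. The summed CPM of 12 fibroblast and preadipocyte markers was 9942 to 13300 in wild type and 12800 to 16570 in YAP2-5SA-∆C skin, that of 10 endothelial markers 141 to 163 and 169 to 203, and that of 7 mast cell markers 160 to 179 and 211 to 260. The fibroblast sums overlapped, and 0 of 12 fibroblast, 0 of 10 endothelial and 2 of 7 mast cell markers passed the threshold. None of these markers was at 0 in all libraries, and their part in the level of *Cd34* was not tested.

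*Sox9* (ENSMUSG00000000567, chr11:112782224-112787760, plus strand), a SOX factor of the outer root sheath and bulge, had 38.7, 33.3 and 30.5 CPM in wild type skin and 31.2, 26.3 and 32.8 CPM in transgenic skin. Transgenic replicate 2 was the lowest library, and the other transgenic libraries lay inside the wild type range. The log2 fold change was -0.18 (standard error 0.12, 95% interval -0.46 to 0.10, FDR 0.362), and -0.08 without transgenic replicate 2 or without wild type replicate 1. *Lhx2* (ENSMUSG00000000247, chr2:38339281-38369733, plus strand) is a LIM-homeodomain factor of bulge and germ cells. Its libraries had 38.5, 33.2 and 34.9 CPM in wild type skin and 39.7, 37.8 and 35.6 CPM in transgenic skin, a narrow and overlapping range. The log2 fold change was 0.09 (standard error 0.08, 95% interval -0.10 to 0.28, FDR 0.530), and it ran from 0.04 to 0.15 when wild type replicate 2 or 1 was left out.

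*Nfatc1* (ENSMUSG00000033016, chr18:80606205-80713071, minus strand) is activated by calcineurin in response to calcium and is known for keeping bulge cells at rest. It had 32.4, 23.9 and 27.8 CPM in wild type skin and 39.7, 49.3 and 37.2 CPM in transgenic skin, so that every transgenic library was above every wild type library. The means were 28.0 ± 4.28 and 42.0 ± 6.38 CPM (SD, n = 3 each), a 1.50-fold difference (95% interval 1.18 to 1.90) or 0.58 on the log2 scale (standard error 0.15). Its FDR of 0.0691 was the lowest of the 10 genes and above the threshold in the quasi-likelihood test of edgeR. Over all alternatives the FDR ran from 0.00432 to 0.210, and 0.47 with an FDR of 0.0769 was the log2 fold change without transgenic replicate 2.

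Of the other NFAT genes, *Nfatc4* had a log2 fold change of 0.44 (FDR 0.150), *Nfatc2* 0.21, *Nfat5* 0.13 and *Nfatc3* 0.02. In the list of 10 genes for NFAT factors, calcineurin subunits and their targets 0 rose and 0 fell, with a median of 0.06. *Ppp3ca*, a catalytic subunit of calcineurin, had 110 to 111 CPM in wild type skin and 119 to 149 CPM in transgenic skin. *Ppp3cb*, another catalytic subunit in the list, named after its values were seen, had a log2 fold change of -0.13 (FDR 0.222). *Rcan1*, a calcineurin inhibitor that NFAT itself induces, had 44.4 to 51.6 and 39.4 to 44.3 CPM. *Cdk4*, which NFATc1 is known to repress in bulge cells, had 115 to 126 CPM in wild type skin and 91.0 to 109 CPM in transgenic skin. None of these genes passed the threshold. Endothelial cells also express *Nfatc1*, and log2 fold changes were above 0 for 10 of 10 endothelial markers. Of these, 5 were higher without overlap, as were 15.5% of all tested genes, and 0 passed the threshold. *Flt1*, a receptor for VEGF, had 12.1 to 13.5 and 15.6 to 21.2 CPM. Whether the endothelial share took part in the *Nfatc1* values was not tested.

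**Figure D2:**
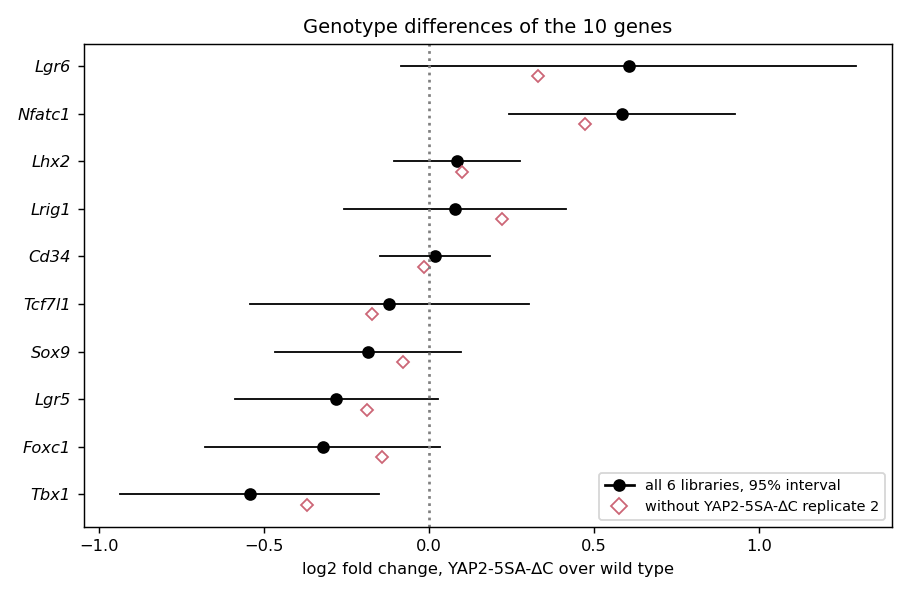
Log2 fold change of YAP2-5SA-∆C over wild type skin (horizontal axis) for each gene, with black points and lines for the estimate and 95% interval of edgeR's quasi-likelihood fit to 6 libraries and open diamonds for the estimate without YAP2-5SA-∆C replicate 2. The intervals of *Nfatc1* and *Tbx1* lie on 1 side of 0 before adjustment for multiple testing. The diamonds of *Lgr6*, *Foxc1*, *Tbx1*, *Nfatc1*, *Sox9* and *Lgr5* lie closer to 0 than their points. Those of *Lrig1*, *Lhx2* and *Tcf7l1* lie farther from 0, and that of *Cd34* lies on the other side of it.

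*Tcf7l1* (ENSMUSG00000055799, chr6:72626378-72789254, minus strand), a repressor of Wnt targets in the absence of signal, had the lowest level of the 10. Its libraries had 9.66, 6.95 and 10.3 CPM in wild type skin and 8.66, 9.04 and 6.91 CPM in transgenic skin, over nearly the same range. The log2 fold change was -0.12 (standard error 0.18, 95% interval -0.54 to 0.30, FDR 0.706), and as single libraries were left out it ran from -0.28 without wild type replicate 2 to -0.01 without wild type replicate 3 or transgenic replicate 3. Of 8 genes listed as TCF and LEF factors with β-catenin and corepressors 0 rose and 0 fell, with a median log2 fold change of -0.11. *Lef1*, the factor that turns on Wnt targets in the germ and hair matrix, had 84.2, 88.1 and 95.9 CPM in wild type skin and 58.7, 26.4 and 54.5 CPM in YAP2-5SA-∆C replicates 1 to 3, and a log2 fold change of -0.94 (FDR 0.0905), or -0.64 (FDR 0.0132) without transgenic replicate 2. *Tcf7* had -0.52 (FDR 0.137) and *Tcf7l2* -0.04. *Ctnnb1*, which encodes β-catenin, had 749.9 to 780.3 CPM in wild type skin and 513 to 635 CPM in transgenic skin (FDR 0.0635).

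*Tbx1* (ENSMUSG00000009097, chr16:18580979-18590671, minus strand) is a T-box factor linked to the self-renewal of bulge stem cells. It had 21.9, 20.3 and 23.0 CPM in wild type skin and 18.4, 11.5 and 14.8 CPM in transgenic skin, with every transgenic library below every wild type library. The means were 21.7 ± 1.34 and 14.9 ± 3.46 CPM (SD, n = 3 each), and the fitted fold was 0.687 (95% interval 0.523 to 0.901). Its log2 fold change of -0.54 (standard error 0.17, FDR 0.101) did not pass the test. Without transgenic replicate 2 it was -0.37 (FDR 0.133), and over all alternatives the FDR ran from 0.0411 to 0.260. *Tbx15* and *Tbx18*, T-box factors of the dermis and dermal papilla, had log2 fold changes of -0.01 and 0.19.

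*Foxc1* (ENSMUSG00000050295, chr13:31806633-31812476, plus strand) encodes a forkhead factor that holds activated bulge cells back in quiescence. It had 48.9, 46.6 and 51.2 CPM in wild type skin and 42.5, 29.8 and 45.2 CPM in transgenic skin. All 3 transgenic libraries were below the wild type range, replicates 1 and 3 by a small margin and replicate 2 by a wide one. The log2 fold change of -0.32 (standard error 0.15, 95% interval -0.68 to 0.03, FDR 0.224) did not pass the test, and it was -0.14 (FDR 0.336) without transgenic replicate 2. The close relative *Foxc2* had at most 0.881 CPM in any library and was not tested. In a wider list of 17 tested relatives of *Sox9*, *Tbx1*, *Foxc1* and *Lhx2*, together with *Hoxc13*, 0 rose and 0 fell. *Foxn1*, a forkhead factor of differentiating hair and epidermal cells, had 29.5 to 41.7 CPM in wild type skin and 10.8 to 21.2 CPM in transgenic skin (log2 fold change -1.11, FDR 0.0619), and fell by 0.86 on the log2 scale (FDR 0.0304) in the fit without transgenic replicate 2. That fit, which called 5.46% of all tested genes, called 3 of 16 tested relatives, all lower, with *Foxe1* and *Hoxc13*, named after their values were seen, beside *Foxn1*. The low *Foxi3* had 0.105 to 0.658 CPM in wild type skin and 1.62 to 3.88 CPM in transgenic skin. It reached 1 CPM in 3 libraries only through the transgenic group, so its FDR of 0.0657 is no support for a difference. Without transgenic replicate 2 it was not tested.

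The stretches before the starts of *Foxc1* and *Tbx1* are shown because both genes were lower in every transgenic library, and that of *Lgr6* because its estimate was the highest. YAP acts on DNA through TEAD factors, so windows from 250 bases before to 50 after each start (RefSeq, GRCm38.p6) were searched on both strands for a TEAD motif (CATTCC, read as GGAATG on the other strand), a TCF/LEF motif (CTTTGA, or TCAAAG on the other strand) and an NFAT core (GGAAAA, or TTTTCC on the other strand), which do not overlap one another in the windows of the members. The search covered 9 windows of 7 members (*Lgr6*, *Cd34*, *Lhx2*, *Tcf7l1*, *Lrig1*, *Foxc1* and *Tbx1*). The TEAD letters were in 0 of 9 windows, against 14.7% of all 32851 windows, and the TCF/LEF letters in 0 of 9, against 16.0%. The NFAT letters were in 2 of the 9, 1 of *Foxc1* and 1 of *Lhx2*, against 23.4% of all windows. In *Foxc1* they began 60 bases before and 4 bases after the first transcribed base. The 250 bases before each start follow, 5′ to 3′ on the strand of the gene in lower case, with matches to the NFAT letters in capitals.
Lgr6, chr1:135105277-135105526, minus strand: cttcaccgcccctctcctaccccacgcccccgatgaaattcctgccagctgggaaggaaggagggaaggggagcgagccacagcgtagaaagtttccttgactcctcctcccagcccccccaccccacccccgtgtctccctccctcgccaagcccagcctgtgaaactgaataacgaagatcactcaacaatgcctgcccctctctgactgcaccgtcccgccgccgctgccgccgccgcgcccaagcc
Foxc1, chr13:31806396-31806645, plus strand: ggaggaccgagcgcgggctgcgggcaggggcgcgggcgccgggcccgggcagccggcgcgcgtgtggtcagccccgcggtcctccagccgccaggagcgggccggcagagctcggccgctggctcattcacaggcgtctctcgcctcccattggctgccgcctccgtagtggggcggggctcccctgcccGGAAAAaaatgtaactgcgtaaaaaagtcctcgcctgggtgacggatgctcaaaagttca
Tbx1 first window, chr16:18588900-18589149, minus strand: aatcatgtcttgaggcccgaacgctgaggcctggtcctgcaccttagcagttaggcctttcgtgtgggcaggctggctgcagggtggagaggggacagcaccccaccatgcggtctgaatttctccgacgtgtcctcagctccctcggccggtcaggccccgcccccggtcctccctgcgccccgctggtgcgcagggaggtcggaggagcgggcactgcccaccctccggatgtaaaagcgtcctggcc
Tbx1 second window, chr16:18590672-18590921, minus strand: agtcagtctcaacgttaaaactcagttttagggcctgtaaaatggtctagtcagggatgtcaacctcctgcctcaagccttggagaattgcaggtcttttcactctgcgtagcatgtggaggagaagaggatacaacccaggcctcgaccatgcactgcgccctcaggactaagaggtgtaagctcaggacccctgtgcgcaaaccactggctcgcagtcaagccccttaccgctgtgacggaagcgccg

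Apart from that of *Cd34*, the windows of the members held more G and C than the median window. The full 300-base windows held 67.7% G and C with 24 CpG for *Lgr6*, 67.3% with 32 CpG for *Foxc1*, and 69.0% and 58.3% with 26 and 16 CpG for the windows of *Tbx1*. The median over all windows was 52.7% with 7 CpG. The window of *Cd34* held 7 CpG, as many as the median. A match or its absence describes only these letters in these windows.

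Compared between genes per exon length (RPKM, from union exons of GENCODE M21), the 10 formed steps. In wild type skin *Cd34* (24.1 ± 0.758 RPKM, SD, n = 3) and *Lrig1* (23.7 ± 2.95) stood at the top with overlapping ranges. *Foxc1* (8.37 ± 0.389), *Sox9* (8.26 ± 1.01) and *Lhx2* (8.08 ± 0.622) followed and did not differ beyond their spread. *Tbx1* (6.18 ± 0.381) and *Lgr5* (5.80 ± 0.556) overlapped as well, and so did *Nfatc1* (3.75 ± 0.573) with *Lgr6* (2.90 ± 0.864) and *Lgr6* with *Tcf7l1* (2.28 ± 0.449). In YAP2-5SA-∆C skin *Lrig1* (25.0 ± 4.22) and *Cd34* (24.4 ± 1.84) again overlapped at the top, and *Lhx2* (8.58 ± 0.470) came next. The next 6 genes, from *Sox9* (7.28 ± 0.814) over *Foxc1* (6.70 ± 1.41), *Nfatc1* (5.63 ± 0.854), *Lgr5* (4.77 ± 0.812) and *Lgr6* (4.41 ± 1.47) to *Tbx1* (4.24 ± 0.984), each overlapped with its neighbour. *Tcf7l1* (2.09 ± 0.289) was the lowest in both genotypes.

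**Figure D3:**
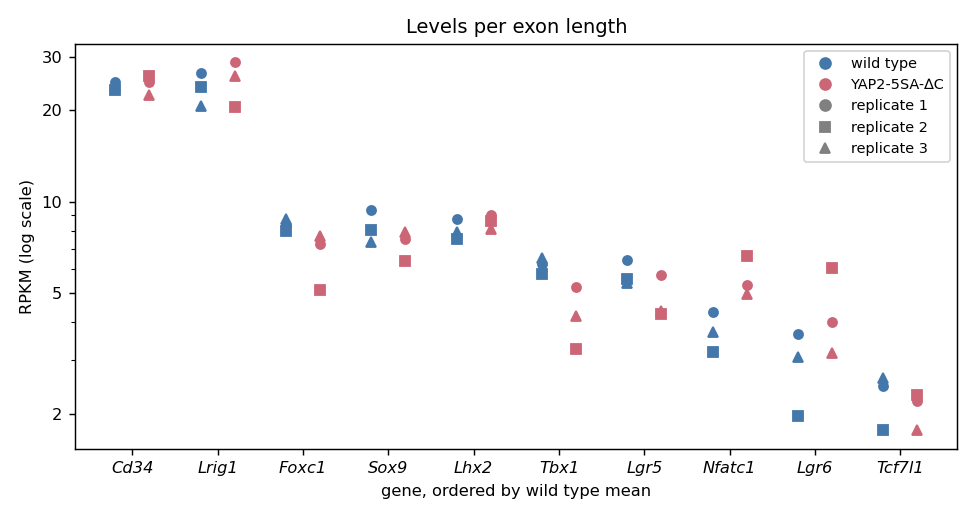
Level per exon length (RPKM, log axis) of each of the 10 genes in the 6 libraries, ordered by the wild type mean, with wild type in blue, YAP2-5SA-∆C in red and symbols for the replicate number. *Cd34* and *Lrig1* lie above 20 RPKM in all libraries, *Tbx1* is below *Nfatc1* on average in YAP2-5SA-∆C skin and above it in wild type, and *Tcf7l1* is lowest by mean.

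The libraries did not contribute equally to the spread. YAP2-5SA-∆C replicate 2 was the highest of the 6 libraries for 3 members and the lowest for 5, *Lgr5*, *Lrig1*, *Sox9*, *Tbx1* and *Foxc1*. Its log2 CPM lay 0.92 below the wild type mean for *Tbx1* and 0.72 below for *Foxc1*, and 1.10 above for *Lgr6* and 0.82 above for *Nfatc1*. In transgenic replicates 1 and 3 the same differences were -0.24 and -0.56 for *Tbx1*, -0.20 and -0.12 for *Foxc1*, 0.52 and 0.18 for *Lgr6*, and 0.51 and 0.42 for *Nfatc1*. For these 4 genes all transgenic libraries lay on the same side of the wild type mean, and replicate 2 lay farthest from it. The hair matrix and shaft genes were also lowest in replicate 2, and whether the stage of the hair cycle took part in the values of the 10 genes was not tested.

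**Figure D4:**
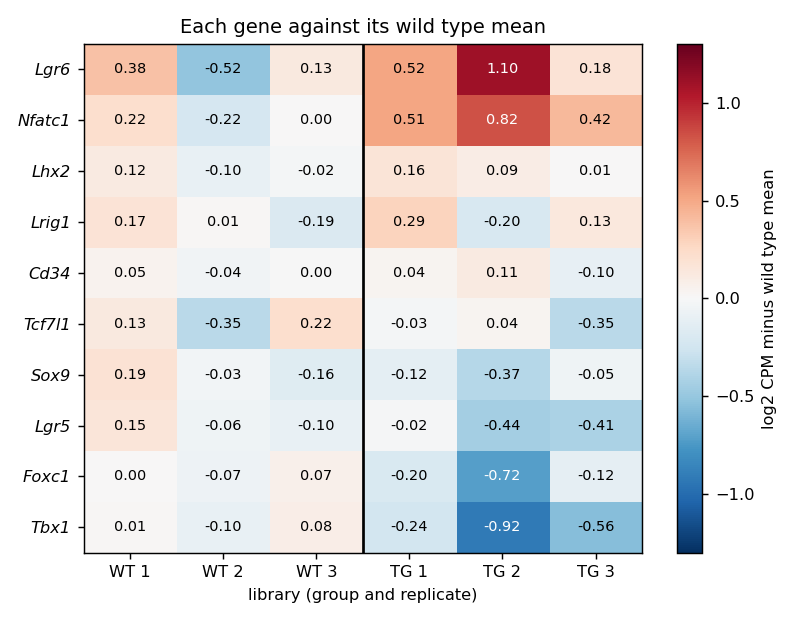
Log2 CPM of each gene in each library minus the mean of the wild type (WT) libraries, printed in the cells and coloured from blue (lower) to red (higher). YAP2-5SA-∆C (TG) replicate 2 holds the extremes, from -0.92 for *Tbx1* to 1.10 for *Lgr6*, and the row of *Cd34* stays between -0.10 and 0.11.

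Other genes of the follicle stem cell niches were read from lists set with earlier results of these data known. Across all lists 12 genes passed, and all 12 were also called without transgenic replicate 2, a fit added to the list counts after seeing the data. Of these 12, 5 were called without wild type replicate 1, 5 without transgenic replicate 1, and 0 in the 3 leave-one-out fits and the replicate block that called 0 of all genes. Of 16 bulge and germ genes 0 rose and 1 fell, with a median log2 fold change of -0.06. The gene that fell was *Ctgf*, a matricellular protein and well-known YAP target, with 24.4, 24.6 and 26.3 CPM in wild type skin and 15.0, 12.2 and 15.3 CPM in transgenic skin (log2 fold change -0.82, FDR 0.0327). *Bmp6*, a BMP ligand that keeps bulge cells at rest, had 5.21 to 5.89 and 2.35 to 3.44 CPM, the chemokine gene *Cxcl14* 72.0 to 83.4 and 35.4 to 55.9 CPM, and *Gas1*, a Hedgehog coreceptor, 43.8 to 46.0 and 53.6 to 67.2 CPM, with none of these 3 past the threshold. Without transgenic replicate 2 all 3 passed, *Gas1* as higher and the others as lower. Of 12 upper follicle genes 1 rose and 0 fell, with a median of -0.04. *Teddm3* rose from 24.8 to 27.7 CPM in wild type to 46.8 to 49.2 CPM in transgenic skin (log2 fold change 0.88, FDR 0.0101). *Krt79*, a keratin of the upper follicle canal, had 178 to 357 and 372 to 482 CPM, *Prdm1* 68.4 to 73.5 and 62.2 to 63.5 CPM, and the Hedgehog pathway factor *Gli3* 54.6 to 58.4 and 31.6 to 48.8 CPM.

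Genes of the other epithelial cells were read in the same way. Of 12 basal keratinocyte genes 1, *Krt14*, rose (1626 to 1665 CPM in wild type, 2839 to 3400 CPM in transgenic skin, FDR 0.0300) and 0 fell, and their sum was 4562 to 5391 CPM in wild type skin and 7016 to 8710 CPM in transgenic skin. Log2 fold changes were above 0 for 12 of 12 with a median of 0.39. Of the 12, 6 were higher without overlap, against 15.5% of all tested genes. Without transgenic replicate 2 the median of the 12 was 0.25 and 2 genes rose, *Krt14* and *Itga6* (FDR 0.0340). *Krt5*, the partner of *Krt14*, had 0.72 (FDR 0.0805) and *Itga6*, an integrin of the basal layer, 0.57 (FDR 0.0615). Of 5 outer root sheath and companion layer keratins 2 rose, *Krt16* (log2 fold change 2.24, FDR 0.0300) and *Krt6b* (2.85, FDR 0.0437), while *Krt75* of the companion layer had 374 to 501 and 73.4 to 245 CPM without passing (log2 fold change -1.35), and *Krt6a* had 152 to 260 and 262 to 641 CPM (log2 fold change 1.27, FDR 0.0797). Without transgenic replicate 2 both passed, *Krt75* as lower (-0.96, FDR 0.0180) and *Krt6a* as higher (1.58, FDR 0.0147). *Krt6b* and *Krt16* are also induced in thickened or wounded epidermis. Of the 19 hair matrix and shaft genes that were counted, 0 rose and 0 fell, and their median was -1.41. Of the 19, 18 were lower without overlap, against 18.3% of all tested genes. Without transgenic replicate 2, the lowest library, 17 of the 19 fell and the median was -0.95. *Msx2*, a homeobox factor of the matrix, had 55.2 to 67.0 and 14.9 to 36.0 CPM. *Soat1* was the 1 of 10 sebaceous gland genes that rose (log2 fold change 0.94, FDR 0.0450), 7 of the 10 were higher without overlap, and *Far2*, an enzyme of wax synthesis, had 109 to 236 and 354 to 432 CPM (FDR 0.0555).

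**Figure D5:**
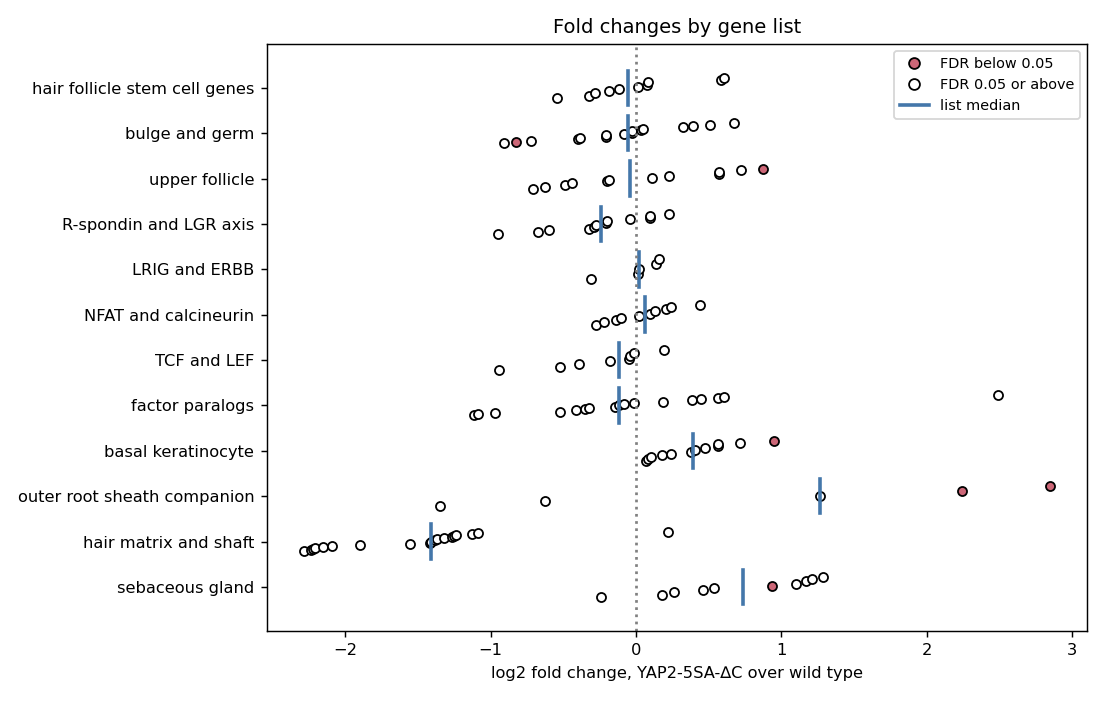
Log2 fold change of YAP2-5SA-∆C over wild type skin (horizontal axis) for each tested gene of the 10 stem cell genes and 11 other lists, 1 row per list, with red for an FDR below 0.05 and blue bars for the medians. The stem cell genes centre on -0.05 with no red point, and the hair matrix and shaft genes have a median of -1.41.

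Marker lists of dermal, pigment and immune cells gave the following counts. Of 10 macrophage markers 2 rose, *Mrc1* (log2 fold change 0.54, FDR 0.0341) and *Csf1r* (0.54, FDR 0.0456). All 10 were higher without overlap, against 15.5% of all tested genes. Of 7 mast cell markers 2 rose, *Hdc* (1.45, FDR 0.0300) and *Cma1* (0.59, FDR 0.0467), which did not pass with voom (FDR 0.0541). Both melanocyte genes past the threshold fell, *Dct* (-0.80, FDR 0.0467) and *Tyrp1* (-1.16, FDR 0.0468). All 6 melanocyte markers were lower without overlap, against 18.3% of all tested genes, and all 6 fell in the fit without transgenic replicate 2. With all libraries, none passed among 12 fibroblast and preadipocyte (median 0.27), 11 tested dermal papilla (-0.11), 10 endothelial (0.23), 8 adipocyte (0.04), 10 skeletal muscle (-1.12) and 13 cell cycle genes (-0.10). Skeletal muscle markers summed to 1529 to 7483 CPM in wild type skin and 1468 to 3770 CPM in transgenic skin, with wild type replicate 1 near the lowest. No listed gene that is in the table was at 0 in all libraries, and the part of these cells in the values of the 10 genes was not tested.

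Because basal keratinocytes carry the transgene and the summed CPM of their 12 listed genes was higher, each gene was also divided by the summed counts of the 12 basal keratinocyte genes. Measured this way, 8 of the 10 stem cell genes were lower in every YAP2-5SA-∆C library than in every wild type library, the exceptions being *Lgr6* and *Nfatc1*. The same held for 79.0% of all tested genes, and the denominator itself differed between the groups. The log2 difference ranged from -1.20 for *Tbx1* and -0.97 for *Foxc1* to -0.04 for *Nfatc1* and -0.03 for *Lgr6*. The median over the members was -0.68, against -0.64 over all tested genes.

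Overlapping gene models could touch some counts, since the strand setting of the counting is not given in the sources used here. No other gene overlaps *Lgr6*, *Sox9*, *Tbx1* or *Foxc1* in GENCODE M21. *Lrig1* shares 144 bases with *Slc25a26* on the opposite strand, which had 29 to 80 counts per library, and the genes that overlap *Lgr5*, *Cd34*, *Lhx2*, *Nfatc1* and *Tcf7l1* had at most 8 counts in any library where they are in the table.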

How the data were processed

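The table deposited by the authors holds raw counts per Ensembl gene of 6 RNA-Seq libraries. Paired-end reads had been aligned to GRCm38 by TopHat2 (2.0.12 in the submitters' processing notes) and Bowtie2 2.1.0, and uniquely mapped reads were counted with HTSeq, so reads shared by near-identical genes are missing. The paper describes mRNA libraries and the labels a total RNA kit. The annotation release and strand setting are not given in the sources used here.

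Genes reaching 1 CPM in 3 or more libraries were TMM-scaled and tested with genotype as the only term by edgeR 4.0.16 (glmQLFit with bias-adjusted deviances, glmQLFTest) in R 4.3.3, with Benjamini-Hochberg adjustment over all tested genes and an FDR threshold of 0.05. A standard error is the log2 fold change divided by the root of F. RPKM divides CPM by the union exon length of GENCODE M21. Alternatives were the likelihood-ratio test, limma 3.58.1 (voom), DESeq2 1.42.0, other scalings and count filters, a replicate block and the removal of each library. The tests were tried on simulated counts.

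The members and gene lists were chosen with earlier results of these data known. Named genes are the members, their close relatives and, of each list, the genes past the threshold and up to 4 with the lowest p. Any other gene is marked as named after its values were seen. One keratin gene of the hair matrix list was not analysed here. Replicate numbers gave no pairing of the libraries.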

Additional observations from a re-analysis of the deposited data

How the results depend on the processing

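No member passed in the quasi-likelihood test, with voom, under any other scaling or count filter, or in the 3 leave-one-out fits that called any gene. In the likelihood-ratio test and in DESeq2 2 members passed, *Nfatc1* (FDR 0.0158 and 0.00432) and *Tbx1* (FDR 0.0449 and 0.0411). The number of all genes past the threshold, 288, was 444 with library totals alone, 497 with no count filter, 1568 in the likelihood-ratio test and 1583 in DESeq2. Leaving out 1 library gave 0 to 816 genes, with 142, 0 and 0 without wild type replicates 1, 2 and 3 and 86, 816 and 0 without YAP2-5SA-∆C replicates 1, 2 and 3. The 3 edgeR fits that called 0 genes had 2725, 2844 and 3692 genes at an unadjusted p below 0.05. The cause of these shifts was not tested. Among the fits on the CPM scale, directions of the members turned for *Lrig1*, whose log2 fold change ran from -0.0128 to 0.222 (-0.0001 without wild type replicate 3), and for *Cd34*, from -0.0154 to 0.0771 (-0.0046 without wild type replicate 2), both near 0. The basal keratinocyte denominator moved all 10 values with all other genes, whose median shifted to -0.64, so the signs under it say nothing of the members.

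Same-numbered libraries of the groups deviated from their group means with correlations of -0.33, -0.23 and -0.05, so the numbers were not taken as pairs. A replicate block gave 0 genes and 0 members past the threshold in edgeR, with 2949 genes and 4 members at an unadjusted p below 0.05.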
